A study of Homo sapiens with 2 samples.

Results

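The cells described here are PC9 cells that carried an sgRNA against ATF4 and PC9 cells that carried an sgRNA against JUN, compared directly with each other. Barcodes with 1000 or more gene UMIs (unique molecular identifiers, each standing for 1 captured RNA molecule), 500 or more genes and no more than 20% UMIs of mitochondrial genes were kept. The sgRNA with the most UMIs in a cell was taken as its sgRNA if it reached 5 UMIs and made up 80% or more of all sgRNA UMIs there. This gave 859 cells with 1 of 6 ATF4 sgRNAs and 836 cells with 1 of 6 JUN sgRNAs, together 1695 of 5556 assigned cells, 10142 kept cells and 10847 deposited barcodes. The rule used the sgRNA of a cell and its depth and quality, and no level of a single nuclear gene.

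PC9 is a lung adenocarcinoma line of human origin whose growth factor receptor EGFR carries an activating mutation. All cells are in 1 pooled matrix, with no label that ties a cell to a replicate culture. They were infected with lentivirus by spinfection at 1000 g with polybrene at 8 ug/ml to an infection rate of about 40%, and selected with puromycin at 1 ug/ml. RNA was read with the 10x Genomics 3′ assay, and the sgRNA of each cell by direct capture. The control group was 700 cells with 1 of 4 non-targeting sgRNAs. By the labels, ATF4, JUN and control cells shared the line, the virus and the selection, and differed in their sgRNA. The labels name a knockout but also dCas9, the form of Cas9 that does not cut DNA, so the kind of perturbation is not settled, and they name both day 7 and day 8. They also describe several sgRNAs in 1 vector and 4 targeted genes, whereas the matrix holds single sgRNAs against 6 genes. Since no replicate cultures can be told apart, the unit of every test was the sgRNA, and p-values reflect no more than the variation from sgRNA to sgRNA, part or all of which may be technical.

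ATF4 and JUN both belong to the bZIP factors, which bind DNA as pairs held together by a leucine zipper. ATF4 is the main transcription factor of the integrated stress response: its protein is made when initiation of translation is slowed, for example by lack of amino acids or by stress of the endoplasmic reticulum. With C/EBP partners it binds CARE elements and drives amino acid synthesis and uptake, tRNA charging and stress effectors. JUN pairs with FOS proteins to form AP-1, which is switched on by growth factor signalling through MAP kinases and acts on genes of proliferation, wound repair and invasion.

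The 12 sgRNAs had between 49 cells (ATF4 sgRNA2) and 256 cells (ATF4 sgRNA4), and their summed gene counts ranged from 628639 to 3371762 UMIs. Median depth per cell was 12564 UMIs in ATF4 cells, 11824 in JUN cells and 12110.5 in control cells. The epithelial identity of the line was present in both groups: 94.8% of ATF4 cells and 93.8% of JUN cells had a UMI of EPCAM, and 97.2% and 93.4% had one of EGFR. KRT18 and KRT19 had UMIs in 100% of both groups and KRT8 in 99.9% and 99.5%. CDH1 was detected in fewer cells, 46.7% and 45.1%. The fibroblast genes COL1A2 and DCN, the T cell gene CD3E and the endothelial gene VWF were at 0 UMIs in both groups. PTPRC had 0 and 2 UMIs, PECAM1 0 and 1, COL1A1 17 and 23, and CDH5 26 and 22, in ATF4 and JUN cells respectively. CD68, a lysosomal gene used as a macrophage marker, had UMIs in 19.2% and 19.5% of the cells. A UMI of a JUN sgRNA was present in 29 ATF4 cells, and a UMI of an ATF4 sgRNA in 30 JUN cells.

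The targeted transcripts were examined first. ATF4 (ENSG00000128272, chr22:39520559-39522686 in GRCh38.p14) stood at 266, 274, 246, 332, 258 and 186 CPM (counts per 1000000 gene UMIs of the sgRNA) in ATF4 sgRNAs 1 to 6. In JUN sgRNAs 1 to 6 it stood at 368, 351, 383, 361, 386 and 388 CPM, and in the 4 control sgRNAs at 376, 372, 343 and 355 CPM. Every ATF4 sgRNA was below every JUN and every control sgRNA, with sgRNA6 the lowest and sgRNA4 the nearest to the controls. The ATF4 minus JUN difference was -0.53 ± 0.078 on the log2 scale (SE), a 1.44-fold lower level (edgeR quasi-likelihood test, Benjamini-Hochberg adjusted p = 4.1e-05). The transcript was still present with every ATF4 sgRNA, at 186 CPM or more.

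JUN (ENSG00000177606, chr1:58780791-58784047) stood at 99.6, 71.6, 82.6, 77.1, 78.8 and 86.3 CPM in ATF4 sgRNAs 1 to 6, at 72.1, 66.7, 53.8, 81.3, 53.3 and 60.8 CPM in JUN sgRNAs 1 to 6, and at 69.3, 78.6, 74.1 and 75.1 CPM in the controls. The groups overlapped: JUN sgRNA4 was above 3 of the 6 ATF4 sgRNAs and above every control, while JUN sgRNAs 2, 3, 5 and 6 were below every ATF4 and control sgRNA. ATF4 cells had 82.7 ± 9.67 CPM (SD, n = 6 sgRNAs) and JUN cells 64.7 ± 10.9 CPM, around the control mean of 74.3. The difference was 0.28 ± 0.084 (edgeR adjusted p = 0.034), made up of 0.15 of ATF4 cells against controls and -0.14 of JUN cells against controls, neither of which passed alone. The call on JUN was lost without any 1 of ATF4 sgRNAs 1, 3 and 6 or JUN sgRNAs 2, 3, 5 and 6 (difference 0.24 to 0.35 over all leave-outs, highest adjusted p 0.14), and in DESeq2 (adjusted p = 0.051). It was also lost in cells of at most 10% mitochondrial UMIs (0.21, adjusted p = 0.70), without the 3 ATF4 and JUN sgRNAs of under 90 cells (0.23, adjusted p = 0.17) and in cells scored as G1 (0.39, adjusted p = 0.071). Protein was not measured.

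**Figure D1:**
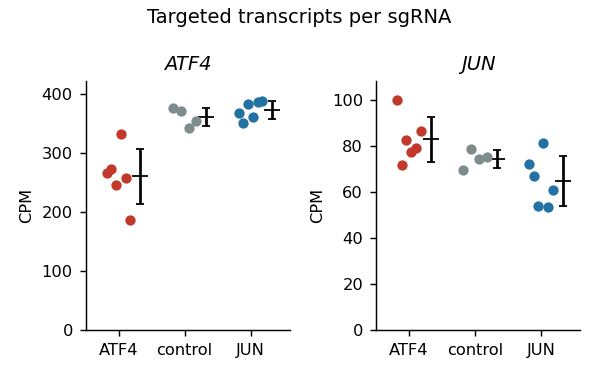
Levels of ATF4 (left) and JUN (right) RNA in CPM for each sgRNA, in the ATF4, control and JUN sgRNA groups; each point is 1 sgRNA and bars are mean ± SD. For ATF4 the ATF4 sgRNAs lie apart from both other groups, at 186 to 332 CPM against 351 to 388 in JUN sgRNAs, whereas for JUN the 3 groups overlap.

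Across the transcriptome, 385 of 11570 genes tested (3.33%) differed between ATF4 and JUN cells at an adjusted p under 0.05: 170 (1.47%) were higher and 215 (1.86%) lower in ATF4 cells. The 6 ATF4 and the 6 JUN values did not overlap for 274 genes (2.37%), 184 of them among the 385. The median difference over all genes was -0.0042 on the log2 scale. Both targets were also set against the same control sgRNAs, in the same fit: 219 genes (1.89%) passed in edgeR for ATF4 and 0 (0%) for JUN. Against controls, 538 of the 11570 genes had an unadjusted p under 0.05 for JUN. That share is no larger than the 0.05 that would arise by chance. In ATF4 against JUN, 1665 genes had an unadjusted p under 0.05. The 2 contrasts share the controls, so their values are given side by side and not correlated. For 192 of the 215 lower genes (89.3%) and 143 of the 170 higher genes (84.1%) the control level was nearer to JUN than to ATF4 cells, against 57.0% of all genes. The remaining 23 lower and 27 higher genes had controls nearer to ATF4 cells. Of 102 genes named below by a fixed rule, 36 no longer passed under a stricter sgRNA rule, 49 in cells of at most 10% mitochondrial UMIs and 50 in cells scored as G1, each with fewer cells. Among those given with their levels, JUN, FOSL1, CCN1, KLF6, CHAC1, NARS and SAA1 were lost in both cell subsets, GARS and NFE2L1 in the first alone, and CTH, F3 and BOP1 in the second alone, all with the same direction. NARS, SAA1 and SLC1A4 were lost under the stricter rule. Without the 3 sgRNAs of under 90 cells JUN, SAA1, CD44 and S100A9 were lost, the last by a small margin (-0.65, adjusted p = 0.0505). A called gene here is one that passed the adjusted p, and all differences below are ATF4 minus JUN on the log2 scale unless said otherwise. The gene lists were chosen with earlier results of these data known. Their shares of called genes are therefore descriptions and no independent test.

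Of 15 listed enzymes that make serine and glycine and pass on one-carbon units, 12 were tested, 5 fell in ATF4 cells relative to JUN cells (41.7%, against 1.86% of all genes), none rose, and the median difference of the list was -0.14. PHGDH, the first enzyme of serine synthesis, had a lowest, median and highest level of 386, 414 and 477 CPM over the ATF4 sgRNAs, and of 585, 596 and 613 CPM over the JUN sgRNAs. The 2 ranges lay far apart, and the controls (594, 559, 567 and 545 CPM) lay near the JUN sgRNAs. The difference was -0.52 ± 0.050 (edgeR adjusted p = 7.5e-14). PSAT1, the aminotransferase of the next step, had 149.8, 167 and 194 CPM in ATF4 and 227, 250 and 255 CPM in JUN sgRNAs. No ATF4 sgRNA reached any JUN sgRNA, with a difference of -0.56 ± 0.055 (edgeR adjusted p = 9.2e-15). MTHFD2, a mitochondrial folate enzyme of one-carbon metabolism, had 137, 148 and 165 CPM in ATF4 and 218, 229.8 and 255 CPM in JUN sgRNAs. Its controls spread from 166 to 227 CPM, from just above the ATF4 range into the JUN range, and the difference was -0.62 ± 0.061 (edgeR adjusted p = 9.2e-15). PSPH, which completes serine synthesis, fell by less (-0.29 ± 0.062), as did SHMT2, which moves a carbon from serine onto folate in mitochondria (-0.32 ± 0.074). The PSPH values overlapped between the groups and those of SHMT2 did not.

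Among enzymes of asparagine, proline, cysteine and glutamate-linked metabolism, 15 of 17 were tested. Of these, 6 fell (40.0%, against 1.86% of all genes), none rose, and the median was -0.08. CTH, which makes cysteine from cystathionine, had 5.00, 7.66 and 8.90 CPM in ATF4 and 8.44, 15.9 and 22.1 CPM in JUN sgRNAs. It had the largest change of the list, -1.06 ± 0.22 (edgeR adjusted p = 0.00054), although the ranges overlapped at their ends. PCK2, the mitochondrial enzyme that makes phosphoenolpyruvate, had 68.6, 78.8 and 101 CPM in ATF4 and 109.9, 126 and 133 CPM in JUN sgRNAs, without overlap, a difference of -0.59 ± 0.073. ASS1, the enzyme of arginine synthesis that joins citrulline and aspartate, differed by -0.58 ± 0.079, with ATF4 values of 55.3 to 88.97 and JUN values of 81.3 to 114 CPM that overlapped. GPT2, a mitochondrial alanine aminotransferase (-0.55), BCAT1, which transaminates branched-chain amino acids (-0.37), and PYCR1, of the last step of proline synthesis (-0.31), also fell. The call on PYCR1 was lost without JUN sgRNA2 (adjusted p = 0.070). In cells of at most 10% mitochondrial UMIs PYCR1, GPT2 and BCAT1 were lost (edgeR adjusted p = 0.39, 0.21 and 0.11). GPT2 (-0.64, edgeR adjusted p = 0.12) and BCAT1 (-0.18, 0.67) were also lost in cells scored as G1, and BCAT1 under the looser sgRNA rule (0.077). ASNS, asparagine synthetase and a textbook target of ATF4, was detected at only 2.95 CPM in ATF4, 3.51 in JUN and 5.75 in control cells on average, and its difference of -0.21 did not pass (edgeR adjusted p = 0.86).

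Amino acid transporters had 13 of 15 members tested, 5 lower (38.5%, against 1.86% of all genes), none higher and a median of -0.20. SLC1A5, a glutamine carrier, had 60.5, 65.8 and 81.1 CPM in ATF4 and 79.97, 98.1 and 118 CPM in JUN sgRNAs. A narrow overlap remained between the highest ATF4 and the lowest JUN sgRNA, and the difference was -0.56 ± 0.078 (edgeR adjusted p = 2.1e-08). SLC7A5 and SLC3A2, the 2 chains of the large neutral amino acid exchanger LAT1, fell by 0.42 and 0.31. SLC7A11, which imports cystine in exchange for glutamate, differed by -0.35 ± 0.075. The SLC7A5 call did not hold with stricter sgRNA assignment (-0.25, edgeR adjusted p = 0.49) or in cells scored as G1 (-0.37, 0.30). It also failed without the sgRNAs of under 90 cells (-0.38, edgeR adjusted p = 0.058). At 10% or fewer mitochondrial UMIs, SLC7A5 (-0.58, edgeR adjusted p = 0.082) and SLC3A2 (-0.26, 0.059) no longer passed. SLC7A11 did not pass in cells scored as G1 (-0.18, edgeR adjusted p = 0.55). SLC1A4, a carrier of alanine, serine and cysteine, was counted at 1.57 CPM on average in ATF4 and 3.65 in JUN cells, from 66 UMIs in all 12 sgRNAs, and its difference of -1.31 ± 0.40 (edgeR adjusted p = 0.046) was lost in 7 of the 12 fits that left out 1 sgRNA (ATF4 sgRNAs 1, 2, 3 and 6, JUN sgRNAs 1, 2 and 6, highest adjusted p 0.20).

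Of the aminoacyl-tRNA synthetases, which load amino acids onto tRNAs, all 20 cytosolic members were tested. Of these, 7 fell (35.0%, against 1.86% of all genes), none rose and the median was -0.21. CARS, the cysteine enzyme, had 78.2, 87.8 and 97.03 CPM in ATF4 and 115, 119.9 and 133 CPM in JUN sgRNAs, a difference of -0.45 ± 0.071 (edgeR adjusted p = 1.2e-06). GARS, the glycine enzyme, had 107, 136 and 156 CPM in ATF4 and 174, 181 and 193 CPM in JUN sgRNAs, a difference of -0.41 ± 0.063 (edgeR adjusted p = 7.6e-07). Neither pair of ranges overlapped. SARS (-0.29), EPRS (-0.28), IARS (-0.26), NARS (-0.26) and LARS (-0.24) were the other called members, of which only EPRS had overlapping groups. The call on LARS was lost without ATF4 sgRNA3 or JUN sgRNA2 (-0.27 to -0.19 over the leave-outs, highest adjusted p 0.091). NARS stood apart from the rest in where its controls lay: 119.6 CPM in ATF4, 121 in control and 141 in JUN cells.

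Of the effectors of the integrated stress response, 21 of 22 were tested. Among these, 7 fell (33.3%, against 1.86% of all genes), none rose and the median was -0.33. NUPR1, a small stress-induced chromatin protein, had 1.59, 13.9 and 23.3 CPM in ATF4 and 28.1, 45.03 and 67.97 CPM in JUN sgRNAs, with controls at 29.2, 35.8, 32.8 and 59.7 CPM. ATF4 sgRNAs spread widely, yet all lay below all JUN and control sgRNAs. The difference was -1.53 ± 0.25, a 2.89-fold lower level (edgeR adjusted p = 0.00022). DDIT4, an inhibitor of the growth kinase mTORC1, had 47.95, 76.3 and 94.9 CPM in ATF4 and 132, 142 and 148 CPM in JUN sgRNAs, again without overlap, and a difference of -0.89 ± 0.11 (edgeR adjusted p = 4.0e-06). EIF4EBP1, which holds back the cap-binding factor of translation, differed by -0.41 ± 0.048, with ATF4 values of 298 to 356 and JUN values of 402 to 486 CPM. STC2, a secreted stanniocalcin (-0.59), JDP2, a bZIP repressor that pairs with JUN (-0.37), and CEBPB, a bZIP partner of ATF4 (-0.22), fell as well. CHAC1, an enzyme that breaks down glutathione, differed by -0.67 ± 0.20 at 8.70 and 12.5 CPM (edgeR adjusted p = 0.043), and this call was lost in 7 of 12 leave-outs (without ATF4 sgRNA 1, 4 or 5 or JUN sgRNA 2, 4, 5 or 6, -0.83 to -0.44, highest adjusted p 0.30).

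Not all well-known effectors passed. TRIB3, a pseudokinase that feeds back on ATF4, differed by -0.26 (edgeR adjusted p = 0.18) at 109 to 181 CPM in ATF4 and 124 to 176 CPM in JUN sgRNAs. DDIT3, which encodes the factor CHOP, differed by -0.18 (edgeR adjusted p = 0.75), and ATF3 by -0.30 (edgeR adjusted p = 0.78) at a mean of 4.07 and 4.36 CPM. These members had overlapping groups.

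**Figure D2:**
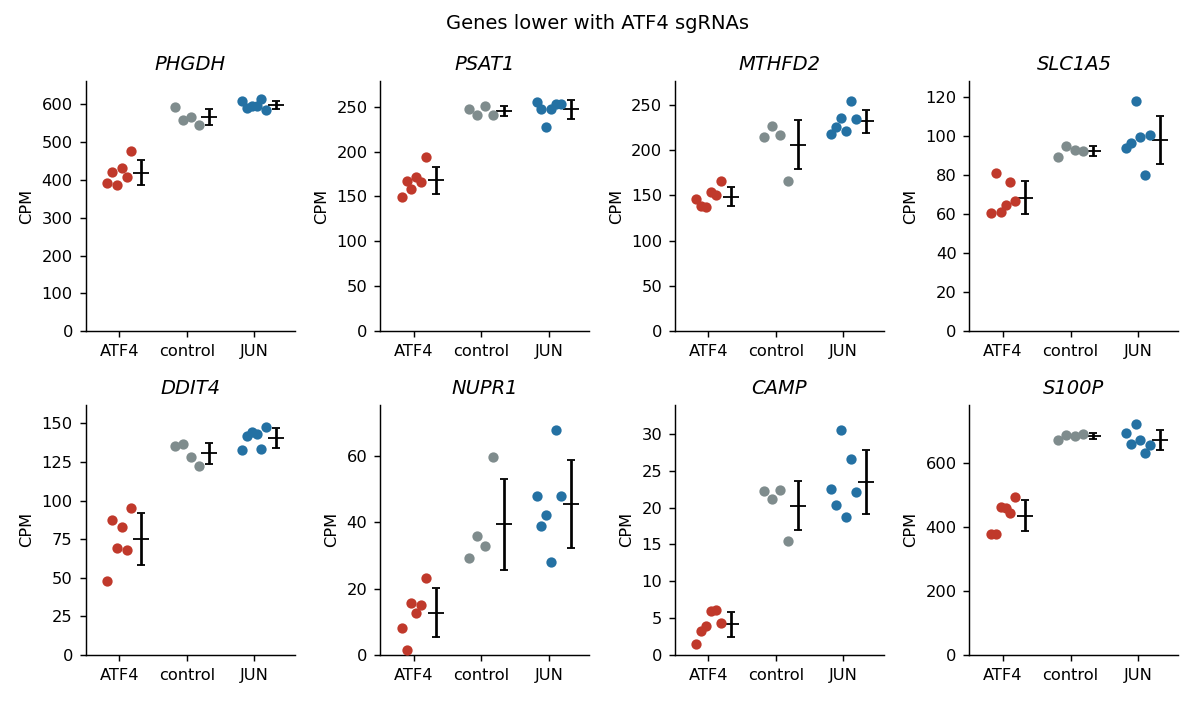
CPM of 8 genes that were lower in ATF4 cells, by sgRNA, in the ATF4, control and JUN groups; each point is 1 sgRNA and bars are mean ± SD. In PHGDH, PSAT1, MTHFD2, DDIT4, NUPR1, CAMP and S100P no ATF4 sgRNA reaches a JUN sgRNA, and in SLC1A5 the ranges of 60.5 to 81.1 and 79.97 to 118 CPM touch.

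Taken as 1 set, the 5 groups above (serine and one-carbon, other amino acid enzymes, transporters, synthetases, effectors) had 81 tested members, of which 30 fell and none rose, against 1.86% lower and 1.47% higher over all genes, 65 had a difference below 0, and the median was -0.24. Each sgRNA was then given 1 value, the median over these 81 genes of log2 of its CPM plus 1 over the control mean plus 1. ATF4 sgRNAs 1 to 6 had -0.21, -0.16, -0.28, -0.13, -0.21 and -0.16, and JUN sgRNAs 1 to 6 had 0.055, 0.026, 0.035, 0.0089, 0.043 and 0.076. All 6 ATF4 sgRNAs were thus below the control level and all 6 JUN sgRNAs slightly above it. The order among ATF4 sgRNAs followed the ATF4 RNA only in part: sgRNA4, with the most ATF4 RNA, had the value nearest to 0, but sgRNA6, with the least, did not have the lowest. The count of lower members was 26 to 31 when 1 sgRNA was left out at a time, 18 in cells of at most 10% mitochondrial UMIs and 17 in cells scored as G1, both with fewer cells.

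**Figure D3:**
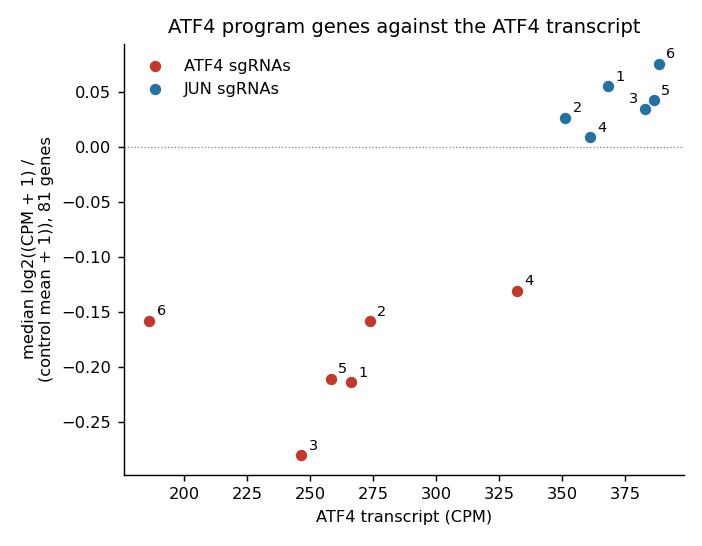
Each point is 1 sgRNA, numbered; the x axis is its ATF4 RNA in CPM and the y axis the median log2 ratio to the control mean over the 81 genes of the 5 amino acid and stress response groups. The 6 ATF4 sgRNAs lie between -0.28 and -0.13 and the 6 JUN sgRNAs between 0.0089 and 0.076.

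CAMP had the largest relative difference of all named genes, and it encodes the precursor of the antimicrobial peptide cathelicidin. It had 1.48, 3.18, 3.90, 5.93, 6.11 and 4.30 CPM in ATF4 sgRNAs 1 to 6 and 22.6, 20.4, 30.6, 18.8, 26.7 and 22.1 CPM in JUN sgRNAs 1 to 6, with controls at 22.2, 21.1, 22.4 and 15.4 CPM. Every ATF4 sgRNA was far below every other sgRNA, a 4.82-fold lower level (-2.27 ± 0.21, edgeR adjusted p = 4.8e-15) that rests on 286 UMIs in the 12 sgRNAs. S100P, an abundant calcium-binding protein of many carcinomas, had 377, 451 and 492 CPM in ATF4 and 630.4, 666 and 721 CPM in JUN sgRNAs, and 671 to 692 CPM in the controls. Its groups were well apart, with -0.62 ± 0.049 (edgeR adjusted p = 1.3e-17).

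Promoters were read to see which called genes carry the CARE letters TGATGNAA, AP-1 letters TGANTCA or CRE letters TGACGTCA, on either strand, in the 250 bases before the start of the gene. RefSeq promoters of GRCh38.p14 matched 9249 of the 11570 tested genes, and the 3 motifs do not contain one another. CARE letters were in 1.23% of all matched promoters (114 of 9249), in 3.61% of those of lower genes (6 of 166), in 1.40% of those of higher genes (2 of 143) and in 9.38% of those of the 81 amino acid and stress genes (6 of 64). Among the 22 matched promoters of the 30 lower members, 2 held them. These were CHAC1, whose call was lost in 7 of 12 leave-outs, and IARS, with the letters 13 bases before the start. A match is a description of letters and not evidence of binding. The promoters of 4 of the 6 lower genes with CARE letters are shown as examples, without that of IARS: CHAC1 (chr15:40953221-40953470, + strand, letters 209 bases before the start), HERPUD1 (chr16:56931892-56932141, +, 176 bases before), CAMP (chr3:48223245-48223494, +, 50 bases before) and S100P (chr4:6693628-6693877, +, 123 bases before). Each runs 5′ to 3′ on the strand of its gene and ends at the base before the start, with the CARE letters in capitals.
CHAC1: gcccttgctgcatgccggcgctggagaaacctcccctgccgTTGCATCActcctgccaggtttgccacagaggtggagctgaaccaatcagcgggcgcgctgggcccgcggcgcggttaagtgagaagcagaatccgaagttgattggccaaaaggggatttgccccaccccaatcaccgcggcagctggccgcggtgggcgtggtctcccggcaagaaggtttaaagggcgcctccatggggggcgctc
HERPUD1: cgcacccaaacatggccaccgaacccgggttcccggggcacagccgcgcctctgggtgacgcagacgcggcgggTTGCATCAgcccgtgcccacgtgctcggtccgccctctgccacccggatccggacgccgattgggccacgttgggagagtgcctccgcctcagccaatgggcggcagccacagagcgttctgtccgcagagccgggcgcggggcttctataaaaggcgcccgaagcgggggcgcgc
CAMP: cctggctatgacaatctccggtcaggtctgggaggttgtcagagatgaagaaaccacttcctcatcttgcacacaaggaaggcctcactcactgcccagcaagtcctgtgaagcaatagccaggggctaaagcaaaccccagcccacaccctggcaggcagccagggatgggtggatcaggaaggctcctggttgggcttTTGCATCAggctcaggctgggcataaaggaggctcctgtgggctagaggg
S100P: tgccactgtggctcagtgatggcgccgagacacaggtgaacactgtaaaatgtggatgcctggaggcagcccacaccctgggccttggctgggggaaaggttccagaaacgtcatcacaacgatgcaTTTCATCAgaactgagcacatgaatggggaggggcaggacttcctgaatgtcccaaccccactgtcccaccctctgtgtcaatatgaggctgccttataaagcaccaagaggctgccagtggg

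CAMP and S100P belong to a list of 20 tested mucosal and S100 genes, of which 6 fell, 2 rose (40.0% called, against 3.33% of all genes) and the median was -0.17. Since earlier results of these data were known when the list was chosen, this share is a description. LCN2, a lipocalin that withholds iron from bacteria, had 419.9, 579 and 646 CPM in ATF4 and 798, 903 and 1134 CPM in JUN sgRNAs. Its controls (720.2, 722, 832 and 652 CPM) lay above all ATF4 sgRNAs and reached into the JUN range, and the difference was -0.71 ± 0.11 (edgeR adjusted p = 7.7e-05). S100A9, a subunit of calprotectin, had 1016, 1121 and 1336 CPM in ATF4 and 1402, 1990 and 2137 CPM in JUN sgRNAs, a difference of -0.75 ± 0.15 (edgeR adjusted p = 0.0036), without overlap. PI3, the elastase inhibitor elafin, had 19.9, 36.4 and 46.1 CPM in ATF4 and 54.01, 114 and 133 CPM in JUN sgRNAs. With controls at 51.7, 40.3, 50.2 and 73.2 CPM, PI3 was nearer to the controls in ATF4 cells (-0.52) than in JUN cells (0.95), and the difference between the targets was -1.47 ± 0.23 (edgeR adjusted p = 0.00012). Neither of these differences from controls passed alone. S100A14 fell (-0.24), while S100A16 (0.19) and S100A10 (0.13) rose, and both increases were lost under several leave-outs (3 and 9 of 12, adjusted p up to 0.10 and 0.17). SAA1 and SAA2, acute-phase proteins with nearly identical transcripts whose counts may be mixed, differed by -1.22 ± 0.33 and -0.98 ± 0.28 (edgeR adjusted p = 0.030 and 0.039). SAA1 values of 14.96 to 50.9 CPM in ATF4 and 44.8 to 128 CPM in JUN sgRNAs overlapped, and its controls alone spread from 24.5 to 114 CPM. The 2 calls were lost in 5 and 8 of 12 leave-outs (adjusted p up to 0.074 and 0.11).

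Other bZIP genes were compared next. Of 37 tested, 5 fell (ATF4 itself, NFE2L1, JDP2, XBP1 and CEBPB), 2 rose (JUN and FOSL1), in all 18.9% against 3.33% of all genes, and the median was -0.12. NFE2L1, which raises proteasome genes when the proteasome is impaired, had 14.96, 21.6 and 26.1 CPM in ATF4 and 27.4, 33.6 and 42.6 CPM in JUN sgRNAs, without overlap, a difference of -0.63 ± 0.13 (edgeR adjusted p = 0.00040). FOSL1, the AP-1 partner FRA1, had 30.2, 34.98 and 38.9 CPM in ATF4 and 18.8, 24.1 and 33.8 CPM in JUN sgRNAs, with overlap. Its difference of 0.51 ± 0.12 (edgeR adjusted p = 0.0053) no longer passed without JUN sgRNA4 (0.42, adjusted p = 0.053) and was 0.08 in cells scored as G1 (adjusted p = 0.94). The remaining FOS and JUN family genes did not pass: JUNB differed by 0.03, JUND by -0.07, FOS by -0.31, FOSB by -0.18 and FOSL2 by -0.25, with adjusted p from 0.13 to 0.92 in edgeR.

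Genes listed as AP-1 targets had 24 of 33 members tested, with 4 higher and 1 lower in ATF4 cells (20.8% called, against 3.33% of all genes), a median of 0.17 and 19 differences above 0. IL11, a cytokine of the interleukin-6 family, was the largest increase of all named genes. It had 102, 60.4, 81.3, 55.8, 80.5 and 65.9 CPM in ATF4 sgRNAs 1 to 6 and 39.7, 29.3, 31.6, 32.1, 50.6 and 33.1 CPM in JUN sgRNAs 1 to 6, and 49.9, 54.99, 51.2 and 63.6 CPM in the controls. All ATF4 sgRNAs were above all JUN sgRNAs, with the controls between and overlapping both. The level was 2.07-fold higher (1.05 ± 0.16, edgeR adjusted p = 0.00011), with ATF4 cells at 0.41 and JUN cells at -0.64 relative to the controls, neither of which passed alone. CCN1, a secreted matricellular protein, differed by 0.55 ± 0.15 (edgeR adjusted p = 0.025) with overlapping values of 23.9 to 43.5 and 16.7 to 26.7 CPM, and was lost in 5 of 12 leave-outs (ATF4 sgRNAs 1 and 5, JUN sgRNAs 1, 2 and 6, adjusted p up to 0.093). EZR, which ties the membrane to actin, differed by 0.17 ± 0.052 (edgeR adjusted p = 0.047) and was lost in 9 of 12 (adjusted p up to 0.18). FOSL1 was the remaining increase. CD44, the hyaluronan receptor, was the member that fell, with 161, 179 and 218 CPM in ATF4 and 201, 219 and 311 CPM in JUN sgRNAs and a difference of -0.27 ± 0.062 (edgeR adjusted p = 0.0021). Its highest value was in JUN sgRNA5, and without the 3 sgRNAs of under 90 cells, ATF4 sgRNA2 and JUN sgRNAs 3 and 5, the CD44 call was lost (-0.17, adjusted p = 0.14), as it was with only ATF4 and JUN sgRNAs in the fit (-0.27, adjusted p = 0.13). AREG (0.38, adjusted p = 0.30) and ANKRD1 (0.63, adjusted p = 0.052), chosen after their values were seen, did not pass in edgeR. Of the called members, IL11 had controls nearer to ATF4 cells, whereas FOSL1, CCN1, EZR and CD44 had controls nearer to JUN cells. Relative to the control mean (log2 of CPM plus 1), the list median was 0.019 to 0.24 over the ATF4 sgRNAs. Over the JUN sgRNAs it was -0.14 to 0.063. The count of higher members of the list was 2 to 6 over the leave-outs, 2 of them without ATF4 sgRNA1, ATF4 sgRNA5, JUN sgRNA1 or JUN sgRNA2, and 2 in cells scored as G1 or of at most 10% mitochondrial UMIs.

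Of 17 tested immediate early genes outside AP-1, 1 rose and none fell (5.88% called, near the 3.33% of all genes), with a median of -0.03. The gene was KLF6, a zinc finger factor, at 38.9, 49.9 and 75.98 CPM in ATF4 and 32.1, 34.4 and 36.8 CPM in JUN sgRNAs. The groups did not overlap and the difference was 0.55 ± 0.11 (edgeR adjusted p = 0.00019). None of the 15 tested feedback genes of EGFR and MAP kinase signalling passed in edgeR or DESeq2, and their median was -0.13. In edgeR 2 had an unadjusted p under 0.05, against 1665 of all 11570 genes.

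AP-1 letters were in 3.67% of all matched promoters (339 of 9249), in 7.69% of those of higher genes (11 of 143) and in 2.41% of those of lower genes (4 of 166). CRE letters were in 3.07%, 5.59% and 3.61%, respectively. The promoters of 2 higher genes and 1 lower gene with AP-1 letters are shown, since IL11, F3 and LCN2 are among the named genes with controls between the 2 targets: IL11 (chr19:55370464-55370713, - strand, letters 96 bases before the start), F3 (chr1:94541760-94542009, -, 223 and 210 bases before) and LCN2 (chr9:128149203-128149452, +, 52 bases before). Capitals mark the AP-1 letters, and direction and end are as above.
IL11: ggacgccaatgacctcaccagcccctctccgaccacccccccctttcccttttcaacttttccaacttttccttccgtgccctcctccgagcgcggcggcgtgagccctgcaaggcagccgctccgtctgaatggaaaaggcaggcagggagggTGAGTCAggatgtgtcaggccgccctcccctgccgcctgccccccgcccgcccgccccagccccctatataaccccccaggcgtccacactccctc
F3: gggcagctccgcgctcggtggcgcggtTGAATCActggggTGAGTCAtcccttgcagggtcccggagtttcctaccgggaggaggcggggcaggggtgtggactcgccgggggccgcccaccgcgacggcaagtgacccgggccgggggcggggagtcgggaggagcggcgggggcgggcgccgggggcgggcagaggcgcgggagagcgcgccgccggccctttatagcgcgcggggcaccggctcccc
LCN2: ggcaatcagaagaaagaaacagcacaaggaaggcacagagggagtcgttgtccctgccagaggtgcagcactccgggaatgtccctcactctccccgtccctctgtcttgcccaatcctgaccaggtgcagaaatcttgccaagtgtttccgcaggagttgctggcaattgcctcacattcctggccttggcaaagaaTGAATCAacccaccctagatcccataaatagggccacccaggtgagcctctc

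Among 19 tested antioxidant genes of the NRF2 pathway and genes of the pentose phosphate pathway, which makes NADPH, 9 fell (47.4%, against 1.86% of all genes), none rose and the median was -0.17. AKR1C1, an aldo-keto reductase whose reads may be mixed with its near copy AKR1C2, had 312, 358 and 397 CPM in ATF4 and 467, 576 and 667 CPM in JUN sgRNAs. The ranges were apart, with a difference of -0.71 ± 0.097 (edgeR adjusted p = 1.9e-05). AKR1B10 (-0.50) and AKR1C3 (-0.32), of the same enzyme family, fell as well. PGD, which makes NADPH in the pentose phosphate pathway, had 62.7, 74.9 and 82.4 CPM in ATF4 and 92.3, 103 and 111 CPM in JUN sgRNAs and differed by -0.50 ± 0.091 (edgeR adjusted p = 0.00015). TKT (-0.32) and TALDO1 (-0.17), of the non-oxidative arm, TXNRD1, thioredoxin reductase (-0.27), ME1, malic enzyme (-0.26), and GCLM, of glutathione synthesis (-0.25), completed the called members. GCLM was lost in 8 of 12 leave-outs (adjusted p up to 0.12). IDH1, a further enzyme that makes NADPH in the cytosol and a member of no list, had 20.7, 35.2 and 42.97 CPM in ATF4 and 60.7, 65.5 and 78.3 CPM in JUN sgRNAs. These were far apart, with controls at 57.8 to 69.1 CPM and a difference of -0.92 ± 0.098 (edgeR adjusted p = 6.1e-13).

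Of 13 tested heat shock chaperones, 2 fell (15.4%, against 1.86% of all genes), none rose and the median was -0.13. HSPA8, the constitutive cytosolic chaperone of the HSP70 family, had 223, 259 and 286 CPM in ATF4 and 306, 348 and 351 CPM in JUN sgRNAs, with controls at 340.01 to 373 CPM. It differed by -0.41 ± 0.053 (edgeR adjusted p = 5.9e-09), without overlap, and HSP90AB1 by -0.17 ± 0.039. Of 20 tested chaperones and stress genes of the endoplasmic reticulum, 3 fell (against 1.86% of all genes), none rose and the median was -0.04. HERPUD1, which helps to clear misfolded proteins from that compartment, had 44.5, 52.4 and 68.3 CPM in ATF4 and 75.2, 86.5 and 104 CPM in JUN sgRNAs, without overlap, and differed by -0.63 ± 0.087 (edgeR adjusted p = 2.6e-08). XBP1, the bZIP factor of the unfolded protein response, differed by -0.32 ± 0.052, and HSPA5, the chaperone BiP, by -0.27 ± 0.068. The HSPA5 call was lost without ATF4 sgRNA4 (edgeR adjusted p = 0.066), under the stricter sgRNA rule (0.057) and in cells scored as G1 (0.098). In cells of at most 10% mitochondrial UMIs HSPA5 (-0.16, edgeR adjusted p = 0.64) and HSP90AB1 (-0.16, 0.14) were lost.

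Of 30 tested genes of ribosome biogenesis and growth, 6 rose in ATF4 cells (against 1.47% of all genes), none fell and the median was 0.14. ODC1, the first enzyme of polyamine synthesis, had 140.3, 159 and 181 CPM in ATF4 and 101, 112 and 125 CPM in JUN sgRNAs. No values overlapped, and the difference was 0.45 ± 0.072 (edgeR adjusted p = 3.1e-06). BOP1, a factor of the large ribosomal subunit, had 50.4, 55.5 and 60.5 CPM in ATF4 and 31.99, 39.2 and 42.7 CPM in JUN sgRNAs and differed by 0.44 ± 0.093 (edgeR adjusted p = 0.00071). GPATCH4 (0.38), DKC1, the pseudouridine synthase of small nucleolar RNPs (0.26), PA2G4 (0.24) and NOP56, a core protein of box C/D RNPs (0.20), were the other increases. NOP56 alone had overlapping groups, and it was lost in 6 of 12 leave-outs, GPATCH4 without ATF4 sgRNA1 or JUN sgRNA1 and DKC1 without ATF4 sgRNA1 or 5 (adjusted p up to 0.13, 0.071 and 0.052). The count of the list was 3 without ATF4 sgRNA1, and 2 in cells scored as G1 and in cells of at most 10% mitochondrial UMIs.

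Further increases in ATF4 cells were found outside the lists. F3, tissue factor, which starts blood coagulation, had 48.3, 65.5 and 72.7 CPM in ATF4 and 33.5, 39.6 and 48.6 CPM in JUN sgRNAs, with controls at 47.03 to 51.7 CPM. Its groups touched at their ends, and the difference was 0.61 ± 0.10 (edgeR adjusted p = 5.6e-06). RAB32, a small GTPase of organelle traffic, differed by 0.61 ± 0.10 (edgeR adjusted p = 1.3e-05), without overlap. CD24, a surface glycoprotein (0.81 ± 0.19), the forkhead factor FOXD1 (0.75 ± 0.16) and FRMD6, a FERM domain protein (0.63 ± 0.13), did not overlap between the groups either. IL32, a cytokine (0.65), FILIP1L (0.60) and PDGFB, a chain of platelet-derived growth factor (0.58), rose with overlapping values, as did AC010327.4 (0.73). MIR31HG (0.76), the host transcript of a microRNA, FAM86C1 (0.71), HIVEP3 (0.63) and FGF11 (0.59) were also among the 15 largest increases, all at means under 20 CPM, and were lost in 5, 1, 7 and 10 of 12 leave-outs (adjusted p up to 0.12, 0.0501, 0.22 and 0.17). Of the others, CD24, FOXD1, FRMD6, FILIP1L, AC010327.4 and PDGFB were lost in cells of at most 10% mitochondrial UMIs (edgeR adjusted p from 0.17 to 0.85). PDGFB differed by only 0.16 there. In cells scored as G1, F3, RAB32, CD24, FOXD1, IL32, FILIP1L, PDGFB and AC010327.4 were lost (edgeR adjusted p from 0.093 to 0.27). The stricter sgRNA rule lost IL32, FILIP1L and AC010327.4 (edgeR adjusted p from 0.12 to 0.23).

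The largest decreases outside the groups above were in ECM2, an extracellular matrix protein, at 2.95, 5.42 and 7.12 CPM in ATF4 and 11.99, 14.97 and 19.6 CPM in JUN sgRNAs. The groups did not overlap, with -1.46 ± 0.20 (edgeR adjusted p = 1.6e-08). PIP5KL1, a lipid kinase-like protein, had 8.85, 11.4 and 16.1 CPM in ATF4 and 16.9, 25.9 and 46.6 CPM in JUN sgRNAs and differed by -1.04 ± 0.16 (edgeR adjusted p = 2.6e-06). CYP1B1, a cytochrome of the aryl hydrocarbon response, had 75.4, 99.2 and 114 CPM in ATF4 and 128, 179 and 199 CPM in JUN sgRNAs. The controls (129 to 154 CPM) lay above all ATF4 sgRNAs and within the JUN range, and the difference was -0.85 ± 0.10 (edgeR adjusted p = 1.3e-06). The long non-coding LINC01133 differed by -1.13 ± 0.21, PKD1, which encodes polycystin, by -0.90 ± 0.18, and ID1, an inhibitor of basic helix-loop-helix factors, by -0.86 ± 0.18. Of LINC01133, PKD1 and ID1, ID1 alone had groups that did not overlap. Yet ID1 (edgeR adjusted p = 0.0044) no longer passed with stricter sgRNA assignment (-0.59, edgeR adjusted p = 0.21). It also failed at 10% or fewer mitochondrial UMIs (-0.87, edgeR adjusted p = 0.052) and among G1-scored cells (-0.99, 0.086). LINC01133 and PKD1 passed under every alternative. SPP1, osteopontin, differed by -0.94 ± 0.25 (edgeR adjusted p = 0.021) and was lost without ATF4 sgRNA4, ATF4 sgRNA5 or JUN sgRNA1 (adjusted p up to 0.077).

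The 50 called genes with controls nearer to ATF4 cells are those in which the JUN sgRNAs stood farther from the controls than the ATF4 sgRNAs did. No gene of JUN against controls passed by itself, so these are descriptions of position, and the genes named next outside the lists were chosen after their values were seen. SFN, the epithelial member of the family of phosphoserine-binding adaptor proteins, had 103, 116 and 138 CPM in ATF4, 67.5, 80.8 and 88.4 CPM in JUN and 95.1, 94.8, 103 and 90.5 CPM in control sgRNAs. Every JUN sgRNA was below every ATF4 and every control sgRNA, and the targets differed by 0.52 ± 0.075 (edgeR adjusted p = 9.4e-08). ANXA2, a membrane-binding annexin, differed by 0.33 ± 0.044 (edgeR adjusted p = 8.8e-09), with 656 to 822 CPM in ATF4, 547 to 649 in JUN and 637 to 665 in control sgRNAs. WNT6, a secreted Wnt ligand, was higher in JUN cells, with means of 12.7 CPM against 5.41 in ATF4 and 6.93 in control cells (-1.08 ± 0.24, edgeR adjusted p = 0.0018).

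**Figure D4:**
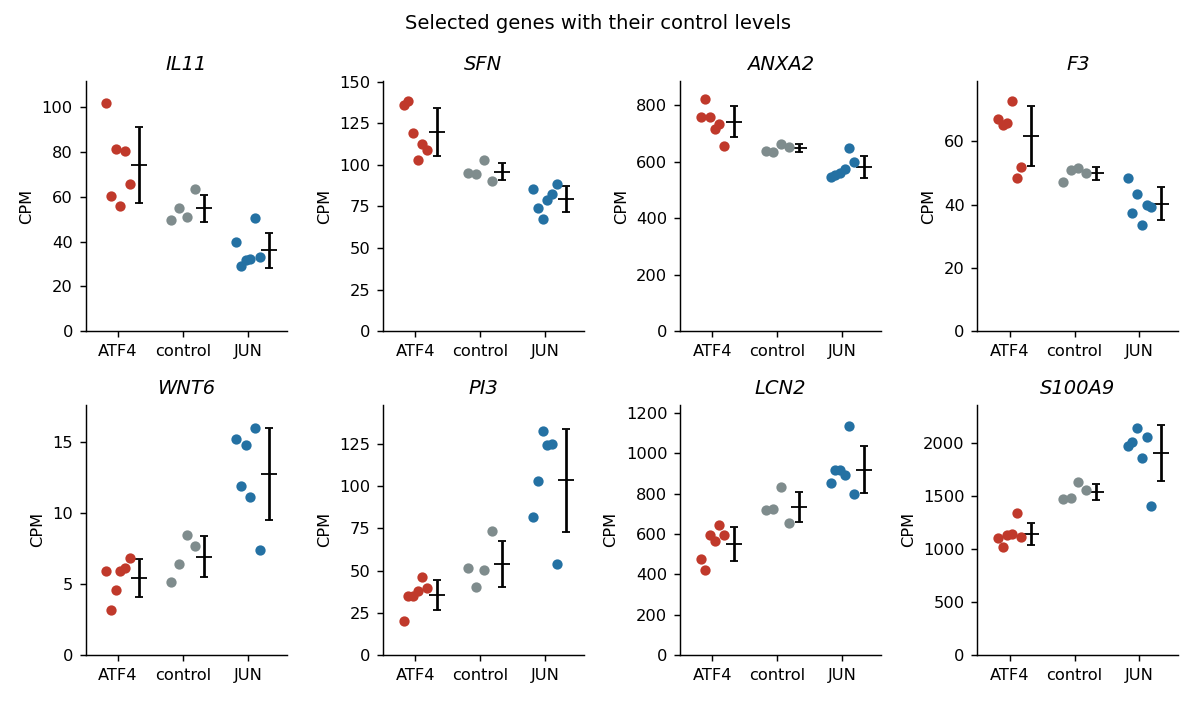
CPM of 8 genes by sgRNA in the ATF4, control and JUN groups, including genes with controls between or nearer to ATF4; each point is 1 sgRNA and bars are mean ± SD. In SFN all JUN sgRNAs lie below all controls, and in IL11 the controls at 49.9 to 63.6 CPM lie between the JUN and the ATF4 groups and reach into both.

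Among 14 tested keratin and epithelial genes, 3 fell and 1 rose (28.6% called, against 3.33% of all genes), with a median of -0.05. KRT8 (-0.15) and KRT19 (-0.15), keratins of simple epithelia, and ESRP1, an epithelial splicing factor (-0.39 ± 0.078), fell, and CLDN1, a claudin of tight junctions (0.49 ± 0.12), rose. KRT19 was lost in 6 of 12 leave-outs and CLDN1 without JUN sgRNA2 (adjusted p up to 0.13 and 0.069). A single gene fell among 23 tested interferon-induced genes (BST2, -0.20), among 16 tested NF-kB targets (TNFAIP2, -0.35), among 19 tested genes of cholesterol synthesis (FDFT1, -0.25) and among 11 of fatty acid synthesis (ME1). These single calls are 4.35%, 6.25%, 5.26% and 9.09% of the members tested, against 3.33% called over all genes, which is no result about the lists. BST2 was lost without ATF4 sgRNA3 (adjusted p = 0.0504), FDFT1 in 3 and TNFAIP2 in 8 of 12 leave-outs (adjusted p up to 0.079 and 0.11). No member passed in edgeR or DESeq2 among 12 tested hypoxia genes (median -0.25), 16 glycolysis enzymes (-0.07), 14 p53 targets (0.03) and 13 mitochondrially encoded genes (-0.06). An unadjusted p under 0.05 was found in edgeR for 5, 3, 1 and 2 of them, respectively, against 1665 of all 11570 genes.

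Genes of the cell cycle were examined because cycling can differ between targets. Of 42 tested S phase genes none passed in edgeR or DESeq2, with a median of -0.03. An unadjusted p under 0.05 in edgeR was found for 2 of these 42, against 1665 of all 11570 genes. Of 54 tested genes of G2 and mitosis 4 fell (7.41%, against 1.86% of all genes), none rose, the median was -0.13 and 46 differences were below 0. The 4 were DLGAP5 (-0.55), NCAPD2 (-0.52), NDC80 (-0.43) and CCNB2 (-0.39), which encode a spindle protein, a condensin subunit, a kinetochore protein and a cyclin. For all 4 the controls were nearer to ATF4 cells. CCNB2 was lost in 8 and NDC80 in 2 of 12 leave-outs (adjusted p up to 0.081 and 0.12). CCNB2, DLGAP5 and NDC80 were lost under the stricter sgRNA rule (adjusted p = 0.37, 0.28 and 0.16), under the looser one (0.21, 0.080 and 0.056) and without the sgRNAs of under 90 cells (0.15, 0.057 and 0.099). In cells of at most 10% mitochondrial UMIs CCNB2, DLGAP5 and NCAPD2 were lost (adjusted p = 0.33, 0.46 and 0.36). In cells scored as G1, a score that uses these same genes, 31 of the list were tested, DLGAP5 and NDC80 not among them. None passed there, with CCNB2 at -0.06 (adjusted p = 0.98) and NCAPD2 at -0.58 (adjusted p = 0.41).

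**Figure D5:**
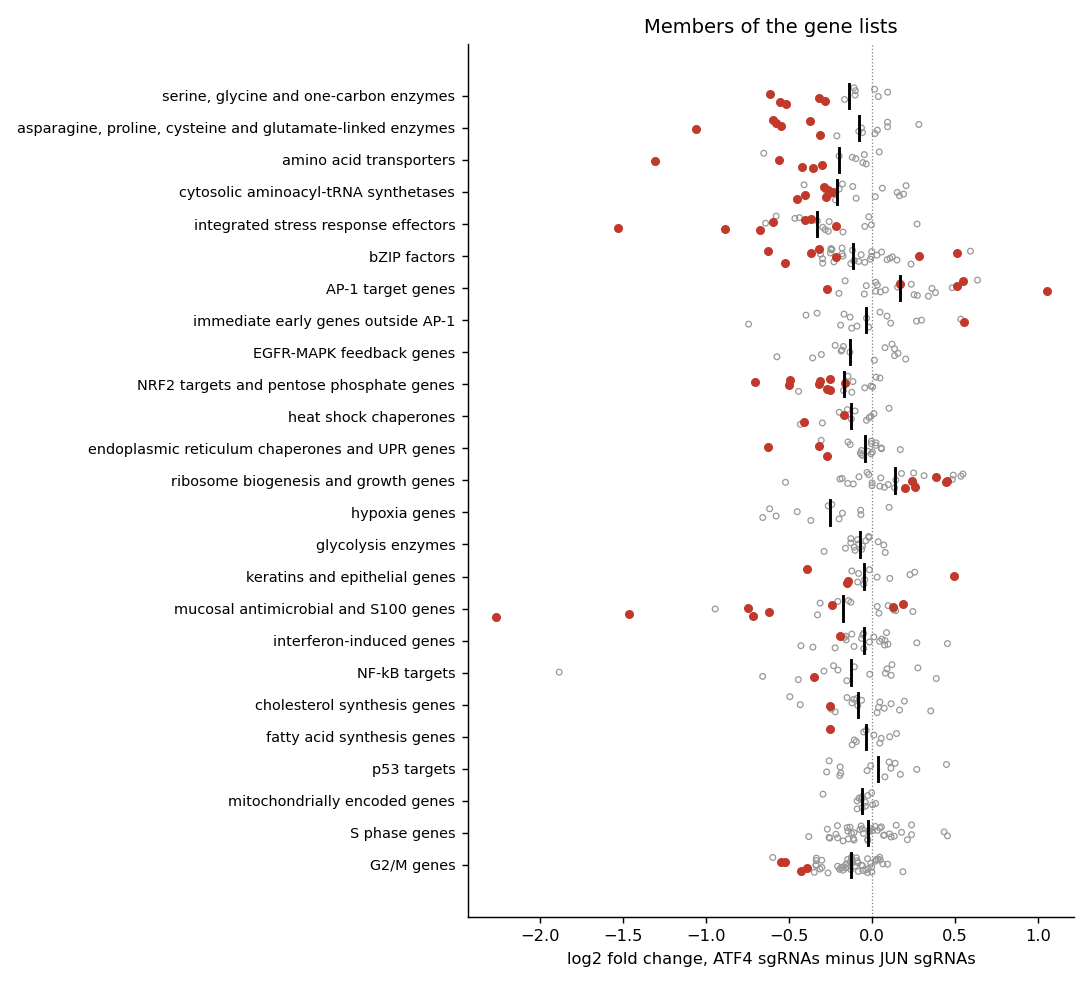
Difference between ATF4 and JUN cells (log2) of every tested member of 25 gene lists; filled red points passed the adjusted p of 0.05, open grey points did not, and black bars are list medians. The 5 amino acid and stress response lists hold 30 called points, all below 0, and ribosome biogenesis holds 6, all above 0.

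Measures of the cells themselves were compared over the 12 sgRNAs with an exact two-sided permutation test, adjusted over 7 measures, where the smallest p possible is 0.0022. The share of cells scored as S was 21.1 ± 2.11% (SD, n = 6 sgRNAs) with ATF4 and 19.3 ± 4.39% with JUN sgRNAs (exact permutation, adjusted p = 0.69). For G2 and mitosis the shares were 27.4 ± 5.47% and 28.7 ± 4.89% (exact permutation, adjusted p = 0.79). The median depth was 12826 ± 592 UMIs per cell in ATF4 and 11879 ± 555 in JUN sgRNAs (exact permutation p = 0.024, adjusted 0.17). Genes per cell followed the depth, at 3462 ± 92.4 and 3318 ± 149.9 (exact permutation, adjusted p = 0.18). Mitochondrial UMIs made up 10.6 ± 0.73% and 10.8 ± 0.62% (exact permutation, adjusted p = 0.78), and sgRNA UMIs per cell had a median of 11.8 ± 2.71 and 17.5 ± 6.16 (exact permutation, adjusted p = 0.18). Cells per sgRNA numbered 143 ± 76.6 and 139 ± 63.7 (exact permutation, adjusted p = 0.94). None of the 7 passed after adjustment. With the mitochondrial share and the share of G2 and mitotic cells of each sgRNA as covariates, 400 genes were called. The part of depth in the gene results was not tested.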

How the data were processed

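The authors deposited raw counts, whole-number UMIs per gene or sgRNA and cell barcode, in 1 joint matrix of 36601 genes and 36 sgRNAs. Per the file headers, Cell Ranger 6.1.2 produced them; the submitters' processing notes name the build hg38. How reads were aligned and whether doublets were removed are points not given in the sources used here, and no doublet caller was run. Assignment to 1 sgRNA removed many mixed barcodes, and 93 kept cells had at least 5 UMIs of both an ATF4 and a JUN sgRNA. No column of another series was present.

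Gene counts were summed per sgRNA. The 34 sgRNAs with at least 20 cells (5530 cells) entered 1 fit with edgeR 4.0.16 in R 4.3.3: TMM scaling, its filter on low counts (11570 genes kept), robust quasi-likelihood dispersion, the contrast ATF4 minus JUN, and Benjamini-Hochberg adjustment over all genes at 0.05. The biological coefficient of variation was 4.64%. CPM are counts over the gene UMIs of the sgRNA, so that with 628639 UMIs in the shallowest sum a gene at 10 CPM rests on few molecules per sgRNA.

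Named genes were ATF4, JUN, the 15 genes with the largest increase and the 15 with the largest decrease of those called with a mean of at least 10 CPM, and every called member of a list, 102 in all, of which 1 is not reported here. Members, lists and alternatives were chosen with earlier results of these data known. Alternatives were other scalings, DESeq2 1.42.0, filters, sgRNA rules, cell subsets, covariates and leaving out each sgRNA. Cell cycle phases were scored with scanpy 1.11.5, and permutation tests used scipy 1.17.1. The 2 alternatives added after seeing the data were edgeR without robust estimation and a fit without the sgRNAs of under 90 cells. Promoters came from RefSeq (GRCh38.p14), 250 bases before the outermost start of a gene. sgRNA sequences were not analysed here.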

Additional observations from a re-analysis of the deposited data

Results flagged for a closer look

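In groups of 4 to 6 sgRNAs, 1 sgRNA can lie far from the rest, and Dixon's test finds this by chance in about 1 of 20 groups. It did so in 19 of 327 groups examined (5.81%), that is, near the chance share. Among ATF4 sgRNAs, sgRNA1 stood apart in FOXD1 (22.1 CPM, nearest other 20.8) and KLF6 (76.0, nearest 51.4), and sgRNA2 in PYCR1 (74.8, nearest 61.9).

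JUN sgRNA5, the smallest JUN group with 56 cells, stood apart most often. It was high in SAA1 (127.9 CPM, nearest 69.8), SAA2 (26.7, nearest 16.9), CD44 (310.5, nearest 236), LCN2 (1134, nearest 918) and BST2 (370.5, nearest 339). It was low in ASS1 (81.3, nearest 103) and in the median share of mitochondrial UMIs (9.59%, nearest 10.9%). Control sgRNA4, the smallest control group with 77 cells, was high in SAA1 (113.7, nearest 26.0), BST2 (410.3, nearest 329.5) and HERPUD1 (105.0, nearest 82.7).

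Of the other JUN sgRNAs, sgRNA3 was low in PSAT1 (226.8 CPM, nearest 247) and high in KRT19 (2445, nearest 2191). JUN sgRNA4 was low in PSPH (165.6, nearest 194), sgRNA2 low in HSPA8 (306.4, nearest 345), and sgRNA6 high in SARS (224.0, nearest 199.9) and low in CCNB2 (34.4, nearest 46.4).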

How the results depend on the processing

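The count of called genes was 385. It became 379 without a low count filter, 389 with DESeq2 size factors, 334 in DESeq2, 518 with only ATF4 and JUN sgRNAs in the fit, 498 under a looser sgRNA rule, 400 with covariates, 389 without robust estimation and 275 without the sgRNAs of under 90 cells. It was 203 under a stricter sgRNA rule, 130 in cells of at most 10% mitochondrial UMIs and 135 in cells scored as G1, each with fewer cells. The share of called genes that were higher in ATF4 cells was 44.2% and became 31.5% and 36.3% in the latter 2. Leaving out 1 sgRNA at a time gave 291 (without ATF4 sgRNA1) to 398 genes, and 200 of the 385 were called in all 12 such fits. All called genes kept their sign wherever tested, except SAA2 under the looser rule (0.14, against -0.98; the cause was not tested). Of the 102 named genes, 73 passed in all 12 leave-outs and 35 under every alternative.

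None of the 7 cell measures passed, and some small differences changed sign, of which the cause was not tested. Under the stricter rule the ATF4 minus JUN difference was -10.7 cells per sgRNA, 0.038 points of mitochondrial share, -0.37 points of S phase and 0.73 points of G2 and mitosis. The mitochondrial difference was 0.059 points under the looser rule and 0.18 in cells of at most 10%. Over the leave-outs it ranged from -0.46 to 0.048, that of cells from -18.7 to 22.7 and that of G2 and mitosis from -2.53 to 0.16.

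No paired analysis was possible because the sgRNA numbers of ATF4 and JUN only name different sgRNAs, and all came from 1 pool. The depth per sgRNA limits genes of low level, such as SLC1A4 with 66 UMIs in the 12 sgRNAs.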
